A study of Mus musculus with 203 samples.

Results

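The genes described here are the classical cadherins and the non-clustered protocadherins of the mouse, taken as every gene of the count table whose symbol is Cdh or Pcdh followed by a number, with Pcdh11x. There were 35 of them among 24029 genes, 23 cadherins and 12 protocadherins. They were followed across single neurons of the nucleus ambiguus (Amb), a motor nucleus of the medulla, each neuron sequenced as a sample of its own. C57BL/6 mice (C57BL/6NCrl in the study's methods) had received a fluorescent cholera toxin B tracer in the pericardial space or in the cricothyroid muscle of the larynx, and labeled neurons were aspirated from brainstem slices at postnatal day 2 to 4 and prepared by Smart-seq2, which amplifies full-length cDNA. The deposited annotation places 53 heart-labeled neurons in a cluster named ACP, 98 in a cluster named ACV (the study ties the names to cardiopulmonary and cardiovascular control), and the 52 larynx-labeled neurons in a type named Larynx. All 3 types share strain, the wild-type genotype, the tracer protein and the age range, and no label gives the exact day of a neuron. In the labels, ACP and ACV differ by cluster alone. The study's staining places ACP neurons in the rostral Amb and ACV neurons caudal to them, but no label gives the position of a neuron. Per the study's methods, larynx-labeled neurons came from other mice than heart-labeled neurons and from a smaller volume of tracer. Injection site, mouse and volume therefore cannot be told apart.

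Cadherins are calcium-dependent adhesion proteins that bind partners on a facing membrane through extracellular repeats. Classical cadherins carry a tail that holds beta-catenin and p120-catenin and, through alpha-catenin, the actin skeleton. Type I members such as N-cadherin favor strong binding to their own kind, whereas type II members bind more selectively within a few groups and are known for sorting spinal motor neurons into pools. The delta-protocadherins lack the catenin-binding tail. Those of the delta2 group can recruit the WAVE complex, which promotes branched actin, and the group is known for its part in axon growth and in the epilepsy that follows loss of PCDH19.

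Each neuron was scaled to counts per 1000000 (CPM) of its reads outside Rn45s, the ribosomal precursor transcript, which took 37%, 38.5% and 58.2% of counts on average in ACP, ACV and Larynx neurons. Counts outside Rn45s ran from 118492 to 2396541 per neuron, with medians of 1115375, 1120512 and 560892, so Larynx values rest on fewer reads. Since no label names the mouse of a neuron, each type counts as 1 sample: no test between types was possible, standard deviations describe the spread between neurons, and differences are given as the log2 ratio of mean CPM plus 1. ACP and ACV were also defined by the study from these same counts, so their differences describe the clusters. A difference of at least 2-fold is called past the fold here, and it was read against the share of the 13600 genes, those with a read in at least 10% of the neurons of any type, that pass it. Of the 35 members 29 were among these genes. A neuron with 10 CPM or more of a member is said to have it on. Shares carry 95% exact (Clopper-Pearson) binomial intervals over neurons, and summed counts carry exact Poisson intervals over reads. Neither covers differences between mice. PCR reads without molecular identifiers are not independent molecules, so the Poisson intervals can be too narrow even for counting error.

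The markers below describe the labels and are no independent check of them. The study lists Pappa2, Hoxa5 and Calca among genes that helped form its clusters from these same neurons. Slc18a3, the vesicular acetylcholine transporter, was read in every neuron. Pappa2, a gene the study assigned to ACP, was read in 94.3% of ACP, 5.10% of ACV and 21.2% of Larynx neurons, Hoxa5 in 37.7%, 95.9% and 36.5%, and Calca, the gene of a calcitonin-related neuropeptide, in 50.9%, 42.9% and 96.2%. Genes of other cells were present unevenly. The summed level of 6 microglial genes had medians of 10.3, 19.3 and 18.6 CPM and highest values of 647.7, 5093 and 1998 CPM, and that of 7 mural and fibroblast genes had medians of 3.94, 14.9 and 28.1 CPM with a highest value of 13208 CPM in 1 Larynx neuron. All 6 microglial genes had a median of 0 in each type, and so did all 6 endothelial genes, whose summed level had a median of 0 and highest values of 93.99, 86.6 and 377.2 CPM. The 6 astrocyte genes, led by Apoe, had summed medians of 1176, 975.1 and 1130 CPM, the 5 oligodendrocyte genes 126.8, 86.4 and 104.3 CPM, and the 2 genes of oligodendrocyte precursors 0 in each type. Values without neurons high in Col1a1 or C1qb are given beside some of the results they move, but not beside all. The part of other cells in the differences was not tested.

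Upstream sequences are shown for 1 member of each pattern in the results: Pcdh18, higher in ACP neurons, Pcdh9, higher in ACV, Pcdh8, higher in Larynx, and Cdh8, lower in Larynx. They are the 250 bases before the RefSeq start of each gene on GRCm38.p6, all on the minus strand and printed in the direction of transcription. Pcdh18 lies at chr3:49757317-49757566, Pcdh9 at chr14:93890670-93890919, Pcdh8 at chr14:79771313-79771562 and Cdh8 at chr8:99416472-99416721. Capitals mark matches to TAATTA, a core shared by many homeodomain proteins, to CANNTG, the E-box of basic helix-loop-helix proteins, or to TATAAA, the TATA box, searched on both strands.
Pcdh18: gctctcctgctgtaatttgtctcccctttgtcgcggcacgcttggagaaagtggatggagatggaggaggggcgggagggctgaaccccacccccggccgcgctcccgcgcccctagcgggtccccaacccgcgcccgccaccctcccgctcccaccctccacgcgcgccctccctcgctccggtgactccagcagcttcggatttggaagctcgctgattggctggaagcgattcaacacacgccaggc
Pcdh9: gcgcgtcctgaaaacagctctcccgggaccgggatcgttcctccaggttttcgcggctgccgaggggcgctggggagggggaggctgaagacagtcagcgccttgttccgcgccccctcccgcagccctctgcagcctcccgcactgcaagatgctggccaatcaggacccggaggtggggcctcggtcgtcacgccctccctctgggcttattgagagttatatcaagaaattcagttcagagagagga
Pcdh8: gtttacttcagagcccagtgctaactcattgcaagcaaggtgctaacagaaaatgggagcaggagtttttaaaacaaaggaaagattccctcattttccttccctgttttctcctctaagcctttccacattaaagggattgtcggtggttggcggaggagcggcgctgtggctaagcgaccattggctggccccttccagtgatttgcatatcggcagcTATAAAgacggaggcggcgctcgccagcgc
Cdh8: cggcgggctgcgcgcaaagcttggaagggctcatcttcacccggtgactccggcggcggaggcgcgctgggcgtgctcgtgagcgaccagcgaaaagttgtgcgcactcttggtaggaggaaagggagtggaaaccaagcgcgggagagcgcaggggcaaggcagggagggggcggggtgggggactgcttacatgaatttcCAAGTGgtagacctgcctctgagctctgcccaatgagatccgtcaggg
Pcdh8 has TATAAA beginning 30 bases before its start, and Cdh8 has 1 E-box. Pcdh18 and Pcdh9 hold none of the 3 motifs in this window. The 4 windows hold 23, 18, 11 and 20 CG dinucleotides for Pcdh18, Pcdh9, Pcdh8 and Cdh8, and 13.4%, 21.8%, 35.8% and 18.1% of 32536 distinct RefSeq promoter windows of this length hold at least as many. Promoters of 22 members were matched. TATAAA was found in 2 of them, Pcdh8 and Pcdh15, against 12.3% of all windows, CANNTG in 12 against 66.2%, and TAATTA in 0 against 4.84%. These are matches of letters and not sites shown to be used.

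The members were spread broadly over all 3 types. A neuron had a median of 16 members on in ACP (lowest 7, highest 23), 12 in ACV (5 to 21) and 15 in Larynx (5 to 22), so the ranges overlapped almost completely. The lower count in ACV came with fewer protocadherins, with medians of 8, 5 and 8 on, while cadherins had medians of 8, 7.5 and 8. At a common depth of 300000 counts outside Rn45s, which leaves out 8 Larynx neurons and no others, the expected number of members with a read had medians of 17.5, 14.4 and 17.9, against unthinned medians of 18, 16 and 18. The set of members on differed in nearly every neuron, with 200 distinct sets over the 3 types. Other gene lists of the same size were not counted this way, so the number is not particular to these genes.

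Per kilobase of exon, the leading members were the same few in each type. In ACP neurons the mean level was 71.2 CPM per kb for Cdh6 (K-cadherin), 38.1 for Pcdh9 and 32.9 for Cdh13 (T-cadherin, which is held in the membrane by a lipid anchor and has no tail). In ACV neurons it was 80.2 for Pcdh9, 35.3 for Cdh6 and 27.1 for Cdh13. In Larynx neurons it was 41.3 for Cdh13, 35.5 for Cdh6, 31.5 for Cdh22, 30.8 for Pcdh9 and 27.3 for Pcdh8, so that Cdh22 and Pcdh8 ranked beside the broadly present members in Larynx neurons, with 3.54 and 4.90 in ACP and 9.56 and 2.26 in ACV neurons.

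**Figure D1:**
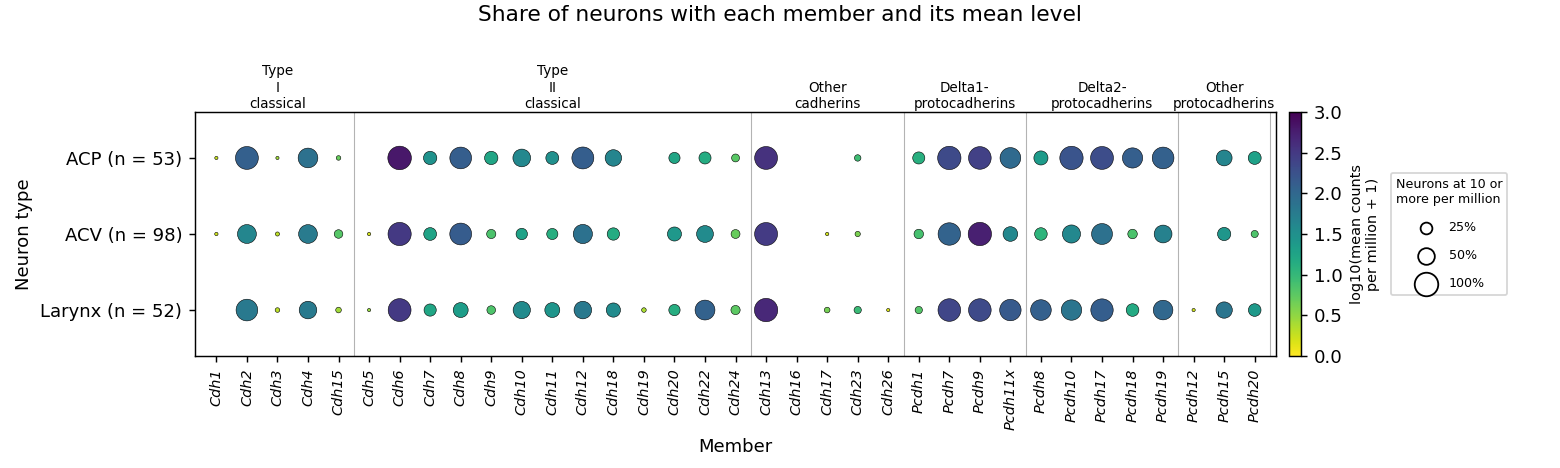
All 35 members (columns, by class) in the 3 types (rows). Dot area is the percent of neurons at 10 CPM or more and color the log10 of mean CPM plus 1. Cdh6, Cdh13, Pcdh7 and Pcdh9 have large dots in every row, whereas Pcdh18 is on in 73.6% of ACP neurons and Pcdh8 in 76.9% of Larynx neurons.

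More members were higher in ACP than in ACV neurons than the reverse. The count past the fold was 14 higher in ACP, where 7.57% of all genes passed, and 2 higher in ACV (Cdh22 and Pcdh9), where 6.48% did. The median log2 ratio of ACP over ACV was 0.91 over the 29 members and 0.00 over all genes, and 23 of the 29 were above zero. Against Larynx neurons 8 members were higher in ACP (8.17% of all genes) and 3 in Larynx (10.1%), with a median of 0.31 over the members and -0.03 over all genes. Between ACV and Larynx 3 members were higher in ACV (7.95%) and 11 in Larynx (11.8%), with a median of -0.74 over the members and -0.02 over all genes. Scaling by totals that include Rn45s moved the median of all genes to 0.51 for ACP over Larynx and 0.44 for ACV over Larynx, and the splits became 11 against 2 and 4 against 5. The 3 comparisons share their neurons, so they are not independent of one another.

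**Figure D2:**
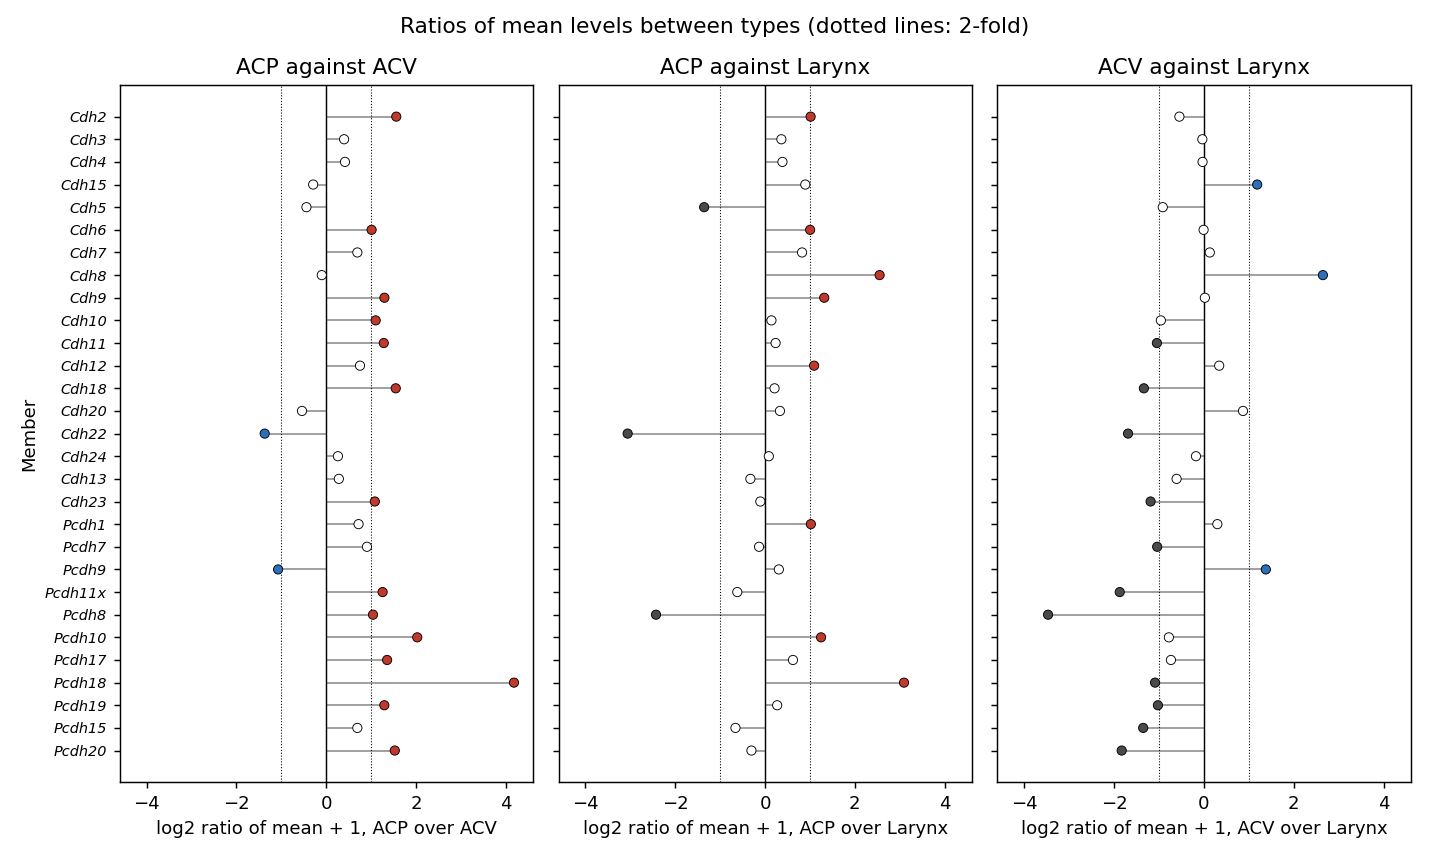
Log2 ratio of mean CPM plus 1 for the 29 members with a read in at least 10% of the neurons of a type, in 3 comparisons. Filled points pass 2-fold (dotted lines) and take the color of the higher type: red for ACP, blue for ACV, dark gray for Larynx. In the first panel 14 points lie past the right line and 2 past the left.

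The delta2-protocadherins as a class followed this most closely. All 5 were past the fold higher in ACP than in ACV, where 7.57% of all genes were, with a median log2 ratio of 1.36. The call of Pcdh8, at 1.04, was kept under only 7 of 13 other treatments of the counts. The summed level of the class had a median of 496.1 CPM in ACP (87.3 to 2391), 150.8 CPM in ACV (0 to 599.1) and 386.0 CPM in Larynx neurons (0 to 2140). The ranges overlapped, but the ACV median was below both others. A median of 4, 2 and 4 of the 5 genes were on.

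Pcdh18, a delta2 member whose tail binds the adaptor Dab1, had the largest difference of any member. Its level per neuron was 0 to 771.4 CPM with a median of 66.7 in ACP, 0 to 117.2 with a median of 0 in ACV, and 0 to 143.4 with a median of 1.71 in Larynx neurons. Most ACP neurons lay above most others, but the groups overlapped at 0. The means were 127.6 ± 157.8 (SD, n = 53), 6.08 ± 18.6 (SD, n = 98) and 14.1 ± 28.3 (SD, n = 52) CPM, so the log2 ratio was 4.18 over ACV and 3.09 over Larynx. It was read in 84.9% of ACP (72.4% to 93.3%), 26.5% of ACV (18.1% to 36.4%) and 51.9% of Larynx neurons (37.6% to 65.99%), and at the common depth in 78.2%, 22.3% and 51.7%. The summed counts were 7916 (7743 to 8092), 541 (496.4 to 588.6) and 428 (388.4 to 470.5). The gene lies at chr3:49743296-49757325 (GRCm38, GENCODE vM21). It also passed the fold as lower in ACV than in Larynx (log2 ratio of ACV over Larynx -1.09), but with Rn45s in the totals that ratio was -0.44 and with neurons under 10 CPM of the microglial gene C1qb -0.31.

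Pcdh10 (OL-protocadherin), which binds the WAVE complex through Nckap1, lies on the same chromosome at chr3:45378398-45435623. Its level was 0 to 1105 CPM with a median of 131.1 in ACP, 0 to 328.5 with a median of 23.2 in ACV, and 0 to 239.7 with a median of 51.6 in Larynx neurons. All 3 ranges began at 0, and the ACP median was above the upper quartile of both other types (55.3 and 98.9 CPM). The means were 163.1 ± 164.9, 39.2 ± 53.5 and 68.1 ± 66.4 CPM (SD, n = 53, 98 and 52), a log2 ratio of 2.03 over ACV and 1.25 over Larynx. An antisense gene, 1700027H10Rik, overlaps its exons, and whether counting used strand is not given in the sources used here, so its reads may include those of its neighbor. The same limit holds for Cdh8, Cdh9, Pcdh7, Pcdh8 and Pcdh19, and Cdh12 overlaps a gene on its own strand.

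Pcdh17, a delta2 member with a part in the extension of grouped axons, was present in nearly every neuron. Its level was 5.34 to 1118 CPM with a median of 143.1 in ACP, 0 to 461.2 with a median of 52.4 in ACV, and 0 to 503.8 with a median of 101.5 in Larynx neurons. Its log2 ratio was 1.36 for ACP over ACV and 0.62 for ACP over Larynx, from means of 200 ± 224, 77.3 ± 78.2 and 129.4 ± 116.1 CPM. Pcdh19, the X-linked epilepsy gene, had medians of 75.3, 17.8 and 44.7 CPM and highest values of 1049, 385.8 and 1024 CPM, with 0 as the lowest value in each type. Its log2 ratio was 1.30 for ACP over ACV and 0.27 for ACP over Larynx, so ACP and Larynx neurons stood close beside the spread of either. For ACV over Larynx the ratio of Pcdh19 was -1.03, and -0.58 with Rn45s in the totals.

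Pcdh8 (arcadlin, a delta2 member induced by neuronal activity) departed from the rest of its class in being highest in Larynx neurons. Its level was 0 to 786.7 CPM with a median of 53.3 in Larynx, against 0 to 337.5 in ACP and 0 to 78.9 in ACV neurons, both with a median of 0. The Larynx lower quartile was 11.4 CPM, just below the upper quartiles of 18.96 in ACP and 11.5 in ACV. The means were 22.2 ± 54.6, 10.3 ± 17.9 and 124.1 ± 157.5 CPM in ACP, ACV and Larynx, so the log2 ratio of Larynx was 2.43 over ACP and 3.47 over ACV. It was on in 76.9% of Larynx neurons (63.2% to 87.5%), 35.8% of ACP (23.1% to 50.2%) and 28.6% of ACV neurons (19.9% to 38.6%). The difference between ACP and ACV (log2 ratio 1.04) rested in part on 1 ACP neuron, which held 28.7% of the type's summed CPM, and it was 0.70 without the highest neuron of each type.

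**Figure D3:**
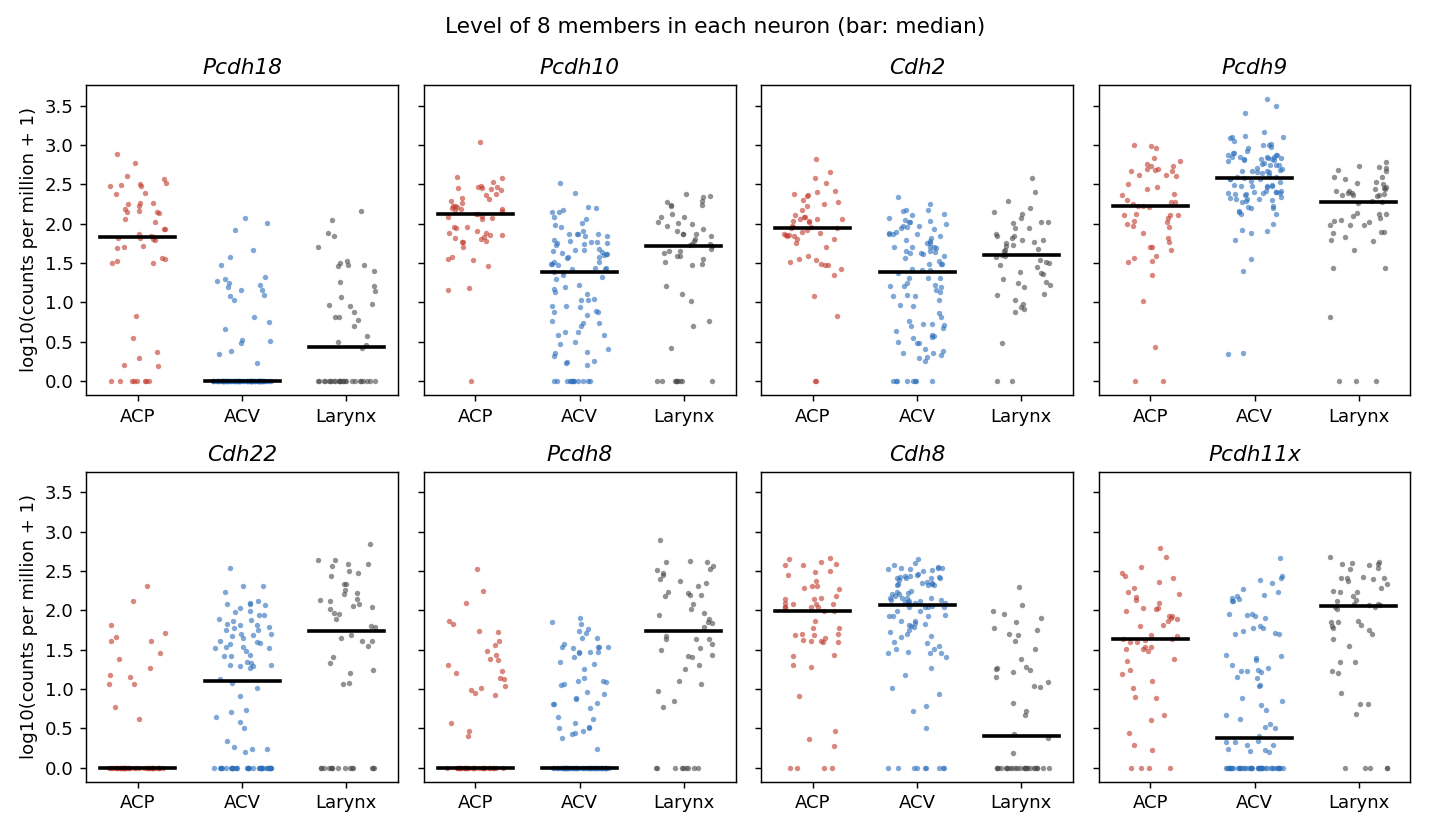
CPM of 8 members in each neuron as log10 of CPM plus 1 (points, spread sideways at random), with black bars at the medians. Pcdh18 has medians of 66.7, 0 and 1.71 CPM in ACP, ACV and Larynx neurons, and the clouds overlap at 0 in every panel but that of Pcdh9 in ACV.

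Of the delta1-protocadherins, Pcdh9 was the one member higher in ACV than in both other types. Its level was 1.22 to 3848 CPM with a median of 381.5 in ACV, 0 to 985.8 with a median of 166.5 in ACP, and 0 to 603.9 with a median of 189.02 in Larynx neurons. Every ACV neuron had reads of it. The means were 544.2 ± 578.4 in ACV, 259 ± 255 in ACP and 209 ± 156.1 CPM in Larynx, and the log2 ratio of ACV was 1.07 over ACP and 1.38 over Larynx. Among all genes 1.24% were higher in ACV than in both others by this rule. It was on in 92.5% of ACP, 97.96% of ACV and 92.3% of Larynx neurons, so the difference was mainly one of level.

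Pcdh11x, an X-linked delta1 member, was low in ACV. Its level was 0 to 617.4 CPM with a median of 42.5 in ACP, 0 to 465.4 with a median of 1.35 in ACV, and 0 to 479.4 with a median of 112.1 in Larynx neurons. It was on in 77.4%, 38.8% and 82.7% of neurons (intervals 63.8% to 87.7%, 29.1% to 49.2% and 69.7% to 91.8%). The log2 ratio of ACV was -1.26 against ACP and -1.88 against Larynx. Pcdh7 was on in 98.1%, 90.8% and 92.3% of neurons, with medians of 165.5, 87.8 and 169.2 CPM, and its log2 ratio of ACV over Larynx was -1.04, which became -0.59 with Rn45s in the totals. Pcdh1 was low, with medians of 0 in each type and means of 11.8, 6.74 and 5.29 CPM, and its difference between ACP and Larynx (log2 ratio 1.02) was 0.37 in neurons with under 10 CPM of C1qb.

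Among the other protocadherins, Pcdh20 was read in 47.2% of ACP, 20.4% of ACV and 44.2% of Larynx neurons, with a median of 0 in each type and highest values of 230.2, 233.9 and 152.8 CPM. Its means were 18.8 ± 44.05, 5.87 ± 28.5 and 23.4 ± 42.8 CPM, a log2 ratio of ACV of -1.53 against ACP and -1.83 against Larynx. Pcdh15, the tip-link partner of Cdh23 in hair cells, had medians of 5.30, 1.92 and 7.87 CPM and single neurons of 860.9, 782.4 and 829.0 CPM. Its log2 ratio of ACV over Larynx was -1.35, and -0.24 in neurons with at most 900 counts of Apoe. Pcdh12, an endothelial protocadherin, was read in 0 of 53 ACP neurons, which allows a share of up to 5.66% taken as 3 neurons and 6.72% as the exact upper bound, in 1 ACV and in 2 Larynx neurons.

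Type I cadherins were led by Cdh2 (N-cadherin) and Cdh4 (R-cadherin). Cdh2 was read in 96.2%, 91.8% and 96.2% of ACP, ACV and Larynx neurons, with levels of 0 to 658.6 CPM and a median of 86.8 in ACP, 0 to 214.1 and 23.5 in ACV, and 0 to 376.5 and 38.98 in Larynx. Its means were 121.97 ± 121.03, 40.7 ± 45.99 and 59.9 ± 67.8 CPM. The log2 ratio of ACP was 1.56 over ACV and 1.01 over Larynx, and the second was 0.91 in neurons with at most 900 counts of Apoe and 0.81 in those with under 10 CPM of C1qb. Cdh4 did not pass the fold in any comparison, with medians of 42.8, 30.8 and 16.4 CPM and highest values of 480.6, 674.2 and 446.5 CPM. Of the remaining type I members, Cdh15 (M-cadherin, known from muscle) was on in 13 of 98 ACV neurons, 2 ACP and 3 Larynx neurons, and Cdh1 and Cdh3 were read in at most 11.5% of the neurons of any type.

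Among type II cadherins, Cdh8 split heart from larynx neurons. Cdh8, which has a known part in sensory circuits, had levels of 0 to 457.9 CPM with a median of 98.5 in ACP, 0 to 443.1 with a median of 116.5 in ACV, and 0 to 195.1 with a median of 1.496 in Larynx neurons. ACP and ACV neurons covered nearly the same range, and the Larynx upper quartile of 19.3 CPM was below the lower quartiles of 39.02 and 37.9 of both. The means were 128.1 ± 128.6, 137.2 ± 114.5 and 21.03 ± 37.7 CPM, so the log2 ratio over Larynx was 2.55 for ACP and 2.65 for ACV, and that of ACP over ACV was -0.10. It was on in 84.9%, 85.7% and 40.4% of neurons (intervals 72.4% to 93.3%, 77.2% to 91.96% and 27.01% to 54.9%). At the common depth it was read in 88.8%, 89.9% and 53.2%. Among all genes 1.96% were lower in Larynx than in both others by this rule, and Cdh8 was the 1 member.

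Cdh22, a type II cadherin first described in the brain and pituitary, ran the other way and formed steps over the 3 types. Its level was 0 to 200.4 CPM with a median of 0 in ACP, 0 to 345.5 with a median of 11.7 in ACV, and 0 to 689.7 with a median of 54.1 in Larynx neurons. All ranges began at 0, and it was read in 30.2%, 63.3% and 71.2% of neurons. The means were 13.1 ± 34.5, 35.4 ± 55.2 and 116.5 ± 151.5 CPM, and the log2 ratio of Larynx was 3.06 over ACP and 1.69 over ACV, while that of ACV over ACP was 1.37. It was on in 26.4% (15.3% to 40.3%), 51.02% (40.7% to 61.3%) and 71.2% (56.9% to 82.9%). It was thus both the 1 member lower in ACP than in both others (1.01% of all genes) and, with Pcdh8, 1 of 2 higher in Larynx than in both others (3.52%).

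The type II genes of chromosome 15, Cdh18, Cdh12, Cdh10, Cdh9 and Cdh6, lie within chr15:13028701-23474418 and had in common a higher mean in ACP neurons. Their log2 ratios of ACP over ACV ran from 0.75 to 1.55 and those of ACP over Larynx from 0.14 to 1.32, all 10 above zero. Most members leaned the same way, with 23 of 29 above zero for ACP over ACV and 20 of 29 for ACP over Larynx. The 2 comparisons also share the ACP neurons. The ratio over Larynx was below zero for Cdh10 from summed counts (-0.03), and for Cdh18 in neurons with at least 500000 counts outside Rn45s (-0.28) or with under 50% of counts on Rn45s (-0.07). The members of chromosomes 8 and 14 went both ways, with log2 ratios of ACP over ACV from -0.44 to 1.28 (6 members) and from -1.07 to 1.53 (5 members). Cdh6 was the most abundant, with levels of 18.8 to 2632 CPM and a median of 436.4 in ACP, 0 to 1320 and 274.4 in ACV, and 0 to 1333 and 289.8 in Larynx. Its ratios of 1.011 and 1.003 sat at the threshold and fell below it under 8 and 6 of 13 other treatments of the counts. Cdh12 had medians of 110, 43.8 and 28.9 CPM and a log2 ratio of ACP over Larynx of 1.09, which was 0.98 in neurons with under 10 CPM of Col1a1 and 0.75 in those with under 10 CPM of C1qb. Cdh18 was on in 49.1%, 27.6% and 36.5% of neurons and had a log2 ratio of ACP over ACV of 1.55. For ACV over Larynx the ratio of Cdh18 was -1.34, and -0.74 with Rn45s in the totals. Cdh10 had medians of 18.8, 0 and 18.5 CPM and a log2 ratio of ACP over ACV of 1.102, and Cdh9 was read in 39.6%, 19.4% and 28.8% of neurons with log2 ratios of 1.30 over ACV and 1.32 over Larynx, the latter 0.57 in neurons with under 10 CPM of C1qb.

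Of the other type II members, Cdh11 (OB-cadherin) passed the fold as low in ACV, with means of 30.97 ± 69.2, 12.1 ± 29.1 and 26.2 ± 45.5 CPM and a log2 ratio of ACV of -1.28 against ACP and -1.05 against Larynx. The second was -0.70 with Rn45s in the totals. Cdh7 (means 28.3, 17.1 and 15.6 CPM), Cdh20 (MN-cadherin, known from the sorting of spinal motor pools, 16.2, 23.9 and 12.6 CPM) and Cdh24 (5.04, 4.04 and 4.70 CPM) did not pass the fold in any comparison. In neurons under 10 CPM of C1qb, however, the log2 ratio of Cdh7 was 1.66 for ACP over ACV, against 0.69. That of ACP over Larynx was 1.27, against 0.82. Cdh5, the cadherin of endothelial junctions, was read in 3 ACP, 10 ACV and 4 Larynx neurons, and its log2 ratio of Larynx over ACP, 1.36, was 0.23 without the highest neuron of each type. Cdh19 was read in 0 of 53 ACP and 0 of 98 ACV neurons, which allows shares of up to 5.66% and 3.06% taken as 3 neurons, and 6.72% and 3.69% as exact upper bounds.

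Cdh13 was on in 94.3%, 94.9% and 98.1% of neurons, with medians of 269.9, 242.9 and 400.2 CPM and no ratio past the fold. Cdh23 was on in 4, 5 and 5 neurons. Its log2 ratio of 1.08 for ACP over ACV was -0.23 without the highest neuron of each type, so 1 neuron of 312.7 CPM set its direction. Cdh16 (a kidney cadherin) was read in no neuron, Cdh17 (an intestinal cadherin) in at most 7.69% of a type, and Cdh26 in at most 4.08%.

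By the rule for a type as a whole, 5 members were higher in ACP than in both other types (Cdh2, Cdh6, Cdh9, Pcdh10 and Pcdh18), where 1.56% of all genes were. This call was kept under 3 of 13 other treatments for Cdh6, and under 9 of 13 for Cdh2 and for Cdh9. Lower in ACV than in both others were 7 members, Cdh11, Cdh18, Pcdh8, Pcdh11x, Pcdh18, Pcdh19 and Pcdh20, where 2.18% of all genes were. Of the 13 other treatments, 7 kept that call for Cdh11 and for Pcdh8, 8 for Pcdh18 and for Pcdh19, and 11 for Cdh18. The calls of Cdh8, Cdh22, Pcdh9, Pcdh10, Pcdh11x, Pcdh20, that of Pcdh8 in Larynx and that of Pcdh18 in ACP held under all 13 other scalings, averages, pseudocounts and sets of neurons. Leaving out the highest neuron of each type, or neurons with 10 CPM or more of Col1a1 or of C1qb, gave 4.29, 4.36 and 3.87 for the log2 ratio of Pcdh18 in ACP over ACV and 3.41, 3.63 and 3.71 for that of Pcdh8 in Larynx over ACV. Pcdh18, Pcdh10, Cdh2, Cdh8 and Pcdh8 also stand in gene lists that the study chose on these neurons, so those lists are no independent evidence of their direction.

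Combinations of members in single neurons were then counted for 6 genes, Cdh8, Cdh22, Pcdh8, Pcdh9, Pcdh10 and Pcdh18, chosen after their values were seen. Because the genes were chosen on the same neurons, the shares are a description. Pcdh10 and Pcdh18 were on together in 73.6% of ACP neurons (59.7% to 84.7%), 10.2% of ACV (5.003% to 17.97%) and 21.2% of Larynx neurons (11.1% to 34.7%). Pcdh10 was on in 52 of 53 ACP neurons and Pcdh18 in 39, so in ACP the share of the pair was that of Pcdh18. Adding Cdh8 on and Pcdh8 off left 45.3% of ACP, 1.02% of ACV and 5.77% of Larynx neurons, or 24, 1 and 3 neurons.

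ACV neurons were set apart mainly by Pcdh18 off beside Cdh8 on. Cdh8 and Pcdh9 on with Pcdh18 off was found in 74.5% of ACV neurons (64.7% to 82.8%), 16.98% of ACP (8.07% to 29.8%) and 21.2% of Larynx neurons (11.1% to 34.7%). The 73 ACV neurons were 78.5% of all neurons with that combination. ACV was also the largest type, with 98 neurons against 53 ACP and 52 Larynx neurons. Among neurons with Cdh8 on, Pcdh9 was on in all 84 of ACV, 43 of 45 of ACP and 20 of 21 of Larynx. In ACV the share was therefore that of Cdh8 on with Pcdh18 off, and Pcdh9 added nothing to it. Cdh22 and Pcdh8 were on together in 59.6% of Larynx neurons (45.1% to 72.99%), 11.3% of ACP (4.27% to 23.03%) and 15.3% of ACV neurons (8.83% to 23.99%). With Cdh8 off as well, the shares were 36.5% of Larynx, 1.89% of ACP and 2.04% of ACV neurons, and 19 of the 22 neurons with that set were Larynx neurons.

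**Figure D4:**
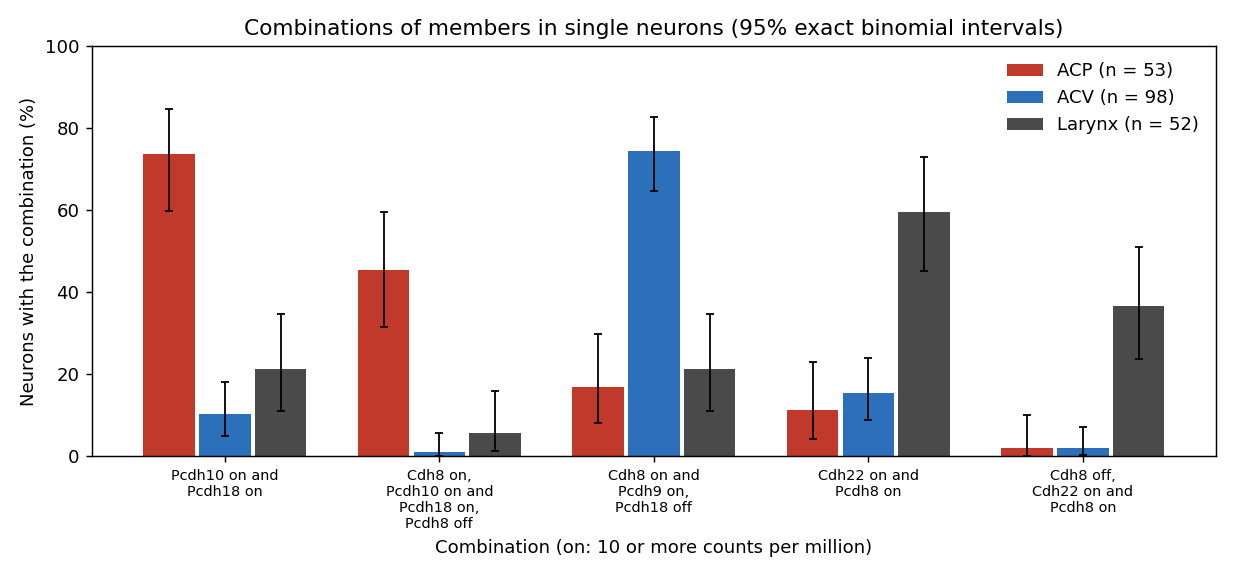
Percent of neurons of each type with 5 combinations of members on or off (on: 10 CPM or more), with 95% exact binomial intervals. The first and second groups of bars are highest in ACP (73.6% and 45.3%), the third in ACV (74.5%) and the last pair in Larynx (59.6% and 36.5%).

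Of the 64 possible on and off patterns of the 6 genes, 37 were seen, 14 of them in ACP, 25 in ACV and 19 in Larynx neurons. The most frequent in ACP, Cdh8, Pcdh9, Pcdh10 and Pcdh18, was seen in 16 of 53 neurons and in 1 neuron of the other types. The most frequent in ACV, Cdh8, Cdh22, Pcdh9 and Pcdh10, was seen in 20 of 98 and in 2 others, and the next, Cdh8 and Pcdh9 alone, in 17 and in 1 other. The most frequent in Larynx, Cdh22, Pcdh8, Pcdh9 and Pcdh10, was seen in 16 of 52 and in 0 neurons of the other types. The patterns were not exclusive: ACP and ACV shared 9, ACP and Larynx 6, and ACV and Larynx 10. All 6 genes were on in 5 ACP, 6 ACV and 6 Larynx neurons.

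**Figure D5:**
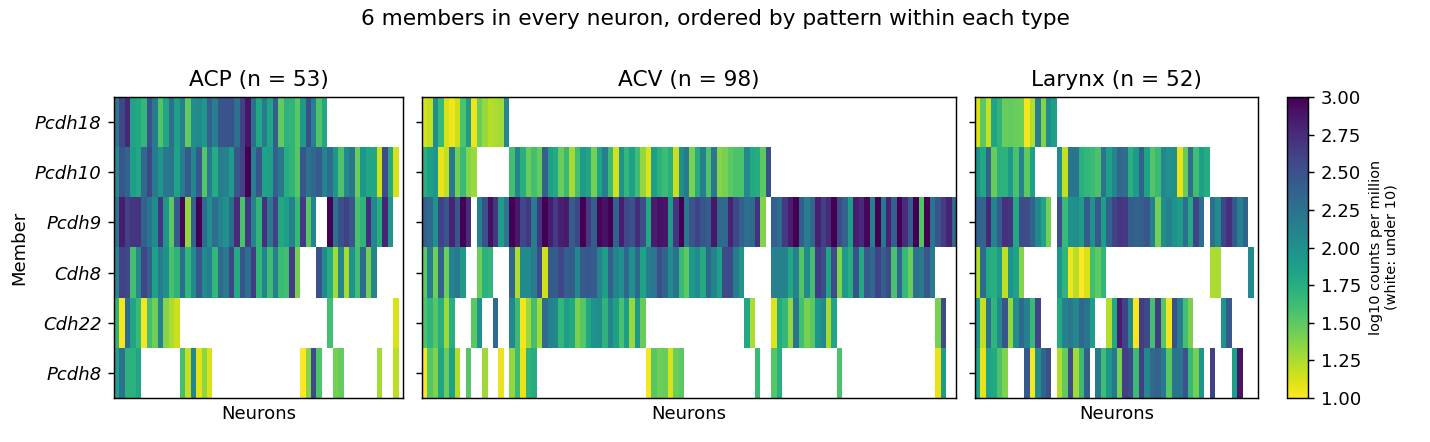
Level of 6 members (rows) in each neuron (columns), ordered within each type by the pattern of members on. Color is log10 CPM and white is under 10 CPM. Pcdh18 is filled in 39 of 53 ACP, 16 of 98 ACV and 15 of 52 Larynx columns, and Cdh8 in 45, 84 and 21.

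The intracellular partners of these proteins were read from the same neurons. Of a list of 22 catenins, adaptors, sheddases and WAVE complex genes, 21 were in the table. Ctnnb1 (beta-catenin) had medians of 331.5, 221.6 and 275.9 CPM and Ctnnd1 (p120-catenin) 4.55, 3.03 and 5.55 CPM, and neither passed the fold. Ctnna2, the neuronal alpha-catenin, was the 1 partner higher in ACV than in both others, as were 1.24% of all genes. Its level was 18.4 to 1531 CPM with a median of 445.7 in ACV, 0 to 617.4 with a median of 113.6 in ACP, and 0 to 672.6 with a median of 152.3 in Larynx neurons, a log2 ratio of ACV of 1.49 over ACP and 1.30 over Larynx. It too stands in a list the study chose on these neurons. Vcl (vinculin), Nckap1 and Wasf1, the last 2 subunits of the WAVE complex, were past the fold higher in Larynx than in ACV neurons, with log2 ratios of 1.32, 1.06 and 1.27. These 3 of 21 are a share near the 11.8% of all genes higher in Larynx than ACV. No partner passed the fold higher in ACP than in ACV or in Larynx, where 7.57% and 8.17% of all genes did. With 21 partners, none passing is near those shares.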

How the data were processed

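Per the labels and the study's methods, neurons were profiled singly by Smart-seq2 and paired-end sequencing, and reads were aligned to mm10 with STAR 2.6.1d (submitters' processing notes). The authors deposited raw read counts per gene and neuron, without normalization. The counting program, its annotation and its use of strand are not given in the sources used here. A deposited table named CPM was not used, since its columns do not sum to 1000000, and types were taken from the deposited cluster annotation.

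Members were matched by symbol, and members, partner list and marker lists were chosen with earlier results of these data known. Counts were divided by each neuron's total outside Rn45s and averaged per type, and means plus 1 CPM were compared on the log2 scale. With 1 sample a type, no p-value was computed. A type was marked by a member at least 2-fold above both others with a read in at least 25% of its neurons. Members past 2-fold in any comparison with a read in 25% of the higher type's neurons are given by name and value. So are those with a mean of 10 CPM. Not every mean, range or ratio is printed for them, and other members are given by range and count. Of the partners, Ctnnb1, Ctnnd1, Ctnna2 and those past the same rule are named. One listed partner, Afdn, had no row matched by symbol and is not analysed here. No 2 neurons had identical counts (0 pairs). Shares at a common depth are expected shares at 300000 counts.

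Alternatives were library sizes with Rn45s, TMM (edgeR 4.0.16) and DESeq2 1.42.0 size factors, summed counts, means of log2 values, pseudocounts of 0.1 and 5, other gene filters, a 4-fold threshold, other on levels and subsets of neurons. Neurons under 10 CPM of Col1a1 or C1qb were added as alternatives after seeing the data. Positions and exon lengths are from GENCODE vM21 (GRCm38), promoters from RefSeq on GRCm38.p6. Python 3.11.15, numpy 2.4.6, pandas 2.3.3, scipy 1.17.1 and R 4.3.3 were used.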

Additional observations from a re-analysis of the deposited data

How the results depend on the processing

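Of 1131 member log2 ratios recomputed under other settings, 996 stayed on their side of the 2-fold threshold, 88 dropped below it and 44 passed it anew. The sign changed in 77, of which 74 were under 2-fold both as reported and under the other setting. The other 3 were Cdh3 in ACP over Larynx, -1.21 in neurons with at most 900 counts of Apoe, Cdh5 in ACP over Larynx, 0.26 in neurons with under 50% of counts on Rn45s, and Cdh23 in ACP over ACV, -0.23 without the highest neuron of each gene. The cause was not tested. Shares of neurons with a read in Larynx rest on a lower median count than in the other types.

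Requiring 4-fold, which passes fewer genes by construction, left 2 members higher in ACP than ACV, 0 higher in ACV than ACP, 2 higher in ACP than Larynx, 1 higher in ACV than Larynx and 1 higher in Larynx than ACV. It left 1 higher in ACP than both others, 0 lower in ACP, 0 higher in ACV, 0 lower in ACV and 1 higher in Larynx. Members higher in ACP than Larynx, 8 as reported, numbered 5 from summed counts, 4 with a pseudocount of 5, 5 in neurons with at least 500000 counts outside Rn45s, and 5 in neurons with under 10 CPM of Col1a1 or, separately, of C1qb. Those higher in Larynx than ACP numbered 5 over all genes with a read, against 3. Members higher in Larynx than ACV numbered 5 with Rn45s in the totals, 7 with DESeq2 size factors and 7 with a pseudocount of 5, against 11. Members higher in ACP than both others numbered 3 from summed counts, 2 with a pseudocount of 5, 2 at most 900 counts of Apoe and 3 under 10 CPM of C1qb, against 5, and those lower in ACV numbered 3, 4 and 3 with Rn45s, DESeq2 size factors and the pseudocount of 5, against 7. The share of ACV neurons with Cdh8 on and Cdh22 and Pcdh8 off was 30.6% at 10 CPM, 18.4% counting any read as on, 44.9% at 30 CPM and 40.9% with at most 900 counts of Apoe, and that of Larynx neurons with Cdh22 and Pcdh8 on fell from 59.6% to 40.4% at 30 CPM. The cause was not tested.

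No paired analysis was possible because no label names the mouse of a neuron or pairs neurons.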
